A study of Homo sapiens with 6 samples.

Results

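The synaptic vesicle and exocytosis genes encode proteins that dock, prime and fuse secretory vesicles, and proteins of the vesicle itself. The family names also take in syntaxins of the ER, Golgi and endosomes. Members were chosen by gene symbol: RIMS, RAB3, SYT, STX, STXBP, VAMP, CPLX, SV2, UNC13, SYN and SYNGR family genes, SNAP23, SNAP25, SNAP29, SNAP47 and SNAP91, NSF, SYP, DOC2A, DOC2B, BSN, PCLO, CADPS, RPH3A, ERC1 and ERC2. The rule used names only and no measured value, and it found 80 protein-coding genes among the 21301 genes of the table. Of these, 79 passed the filter on low counts and entered a fit over 19694 genes, while STX19 was too low to test. Family members CADPS2, CPLX4, STX11, STXBP6, SYT6, SYT10, SYT12 and UNC13C were not analysed here.

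The RNA came from SH-SY5Y cells, an established human neuroblastoma line with noradrenergic traits, grown in serum with no differentiation step described. The question was how PSF, the RNA-binding splicing factor encoded by SFPQ, affects gene expression in these cells. All cells received 10 nM of an siRNA for 72 h, either siControl (3 libraries) or siPSF (3 libraries), and poly(A)-selected RNA was sequenced. A single PSF siRNA was used according to the methods, so an effect of that siRNA on other transcripts and an effect of losing PSF cannot be told apart.

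At a synapse, active zone scaffolds (bassoon, piccolo, RIM and ELKS proteins) hold vesicles near calcium channels, and Munc13 proteins prime them. SNARE proteins on the vesicle (VAMP) and on the plasma membrane (syntaxin and SNAP25) zip together to fuse the membranes, assisted by complexins and the recycling ATPase NSF. Synaptotagmins and DOC2 proteins sense calcium and trigger fusion, and synapsins, SV2 proteins, synaptogyrins and RAB3 GTPases sit on the vesicle itself. Neuroblastoma cells carry dense-core vesicles with catecholamines and use many of these proteins for hormone-like secretion.

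Total counts ranged from 101540520 to 132420931 per library. The siPSF libraries were lower in SFPQ itself (chromosome 1, 35176380 to 35193145), which had 372, 356 and 401 CPM with siControl and 209, 193 and 165 CPM with siPSF (log2 fold change -0.99, SE 0.10, adjusted p = 9.5e-05, edgeR quasi-likelihood test). CPM here is the count relative to the TMM-scaled library size, and serves to compare 1 gene between libraries. All 8 noradrenergic neuroblastoma markers were in the table, with a summed level of 3876 to 4403 CPM in siControl and 3336 to 3810 CPM in siPSF libraries. Of the 8 mesenchymal markers 7 were present, at 349 to 365 and 319 to 349 CPM, and of 6 astroglia and Schwann cell markers 2 were present. The part of these shifts in the results below was not tested, and in RNA from whole cultures fewer cells of a kind and less RNA per cell cannot be told apart. The paper calls the samples of each group biological triplicates, while the labels do not say whether libraries came from separate cultures. The p-values measure the spread between these libraries only.

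With siPSF a subset of the exocytosis genes was lower, among them scaffolds, complexins, calcium sensors and vesicle proteins. No SNARE of secretion was called in the count fit, and all of these SNAREs span under 100 kb. Of the 79 members tested, 19 were lower (24.1%), 4 were higher (5.06%) and 56 were not called at an adjusted p under 0.05. Over all 19694 genes, 8.27% were called lower and 6.65% higher. The median log2 fold change was -0.10 for the members and 0.01 for all genes, and 51 members were fitted below 0. In 38 of the 79 members the 3 siPSF libraries did not overlap the 3 siControl libraries, against 34.4% of all genes, and all 23 called members were among them. The same held for 2912 of the 2938 called genes in all, so it is a trait of called genes and not of the members. Only RAB3C, SYN3, RIMS1 and SYT9 fell to less than 50% of the siControl level by the fitted fold change. The count of higher members fell to 1 without siControl replicate 2 and to 2 without siControl replicate 3. In a fit of rescaled FPKM, which moved the median of all genes to -0.16, 29 members were lower and 1 higher, and 88% of all calls were lower, against 55.4% in the count fit and 70.8% with FPKM as deposited. Summed over all members, the libraries had 4058, 4205 and 4151 CPM with siControl and 3641, 3793 and 3594 CPM with siPSF, so that 88.8% of the summed level was left.

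**Figure D1:**
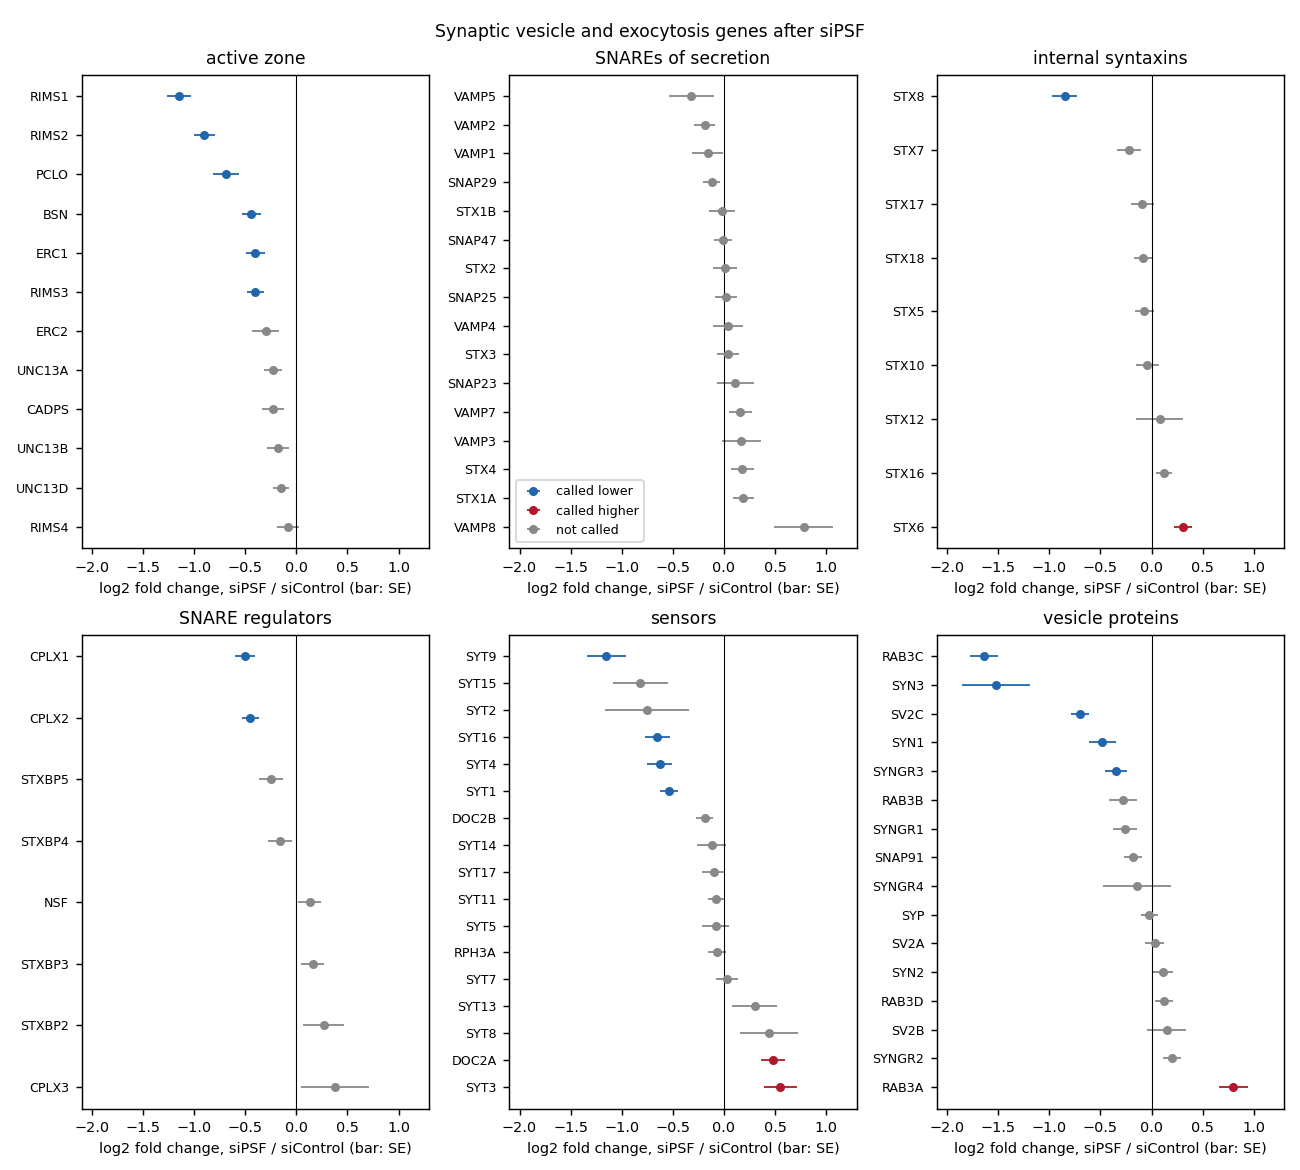
Log2 fold change of siPSF over siControl (x axis, edgeR fit of 3 against 3 libraries, bars are SE) for the members reported (y axis), in 6 panels by role. All 12 active zone genes lie left of 0 and 6 of them were called lower (blue). None of the 16 SNAREs of secretion, which all span under 100 kb, was called.

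Active zone genes were called in 1 direction only. Of 12 tested, 6 were called lower (50%), none higher and 6 in neither direction, all 12 were fitted below 0, and the median log2 fold change was -0.35. Over all 19694 genes, 8.27% were called lower and 9541 were fitted below 0. Of the called genes, BSN, ERC1, PCLO, RIMS1 and RIMS2 span 100 kb or more, a span at which 25.1% of all protein-coding genes were called lower. Their summed level was 1324, 1403 and 1352 CPM with siControl and 1082, 1185 and 1033 CPM with siPSF, which left 80.9%. The groups did not overlap in this sum.

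RIMS1, which encodes the RIM1 scaffold that links RAB3 vesicles to calcium channels, had 10.1, 9.25 and 10.9 CPM in siControl libraries and 4.49, 4.88 and 4.26 CPM in siPSF libraries (log2 fold change -1.15, SE 0.12, adjusted p = 1.6e-04, edgeR). It spans 517 kb of chromosome 6 (71886550 to 72403145), and every siPSF library was below 50% of the siControl mean. Its paralog RIMS2, which encodes RIM2, had 25.8, 26.2 and 30.5 CPM against 15.1, 15.3 and 13.8 CPM (-0.90, SE 0.10, adjusted p = 2.6e-04). RIMS3, which encodes the short RIM3 protein without the RAB3-binding domain, fell less, from 401, 408 and 371 CPM to 282, 315 and 294 CPM (-0.40, SE 0.08, adjusted p = 0.0074). RIMS4, the other short RIM, was not called, with 231, 241 and 221 CPM against 226, 249 and 182 CPM (-0.08, 95% interval -0.29 to 0.14, adjusted p = 0.68). The third siPSF library was the lowest of the 6, and the other two lay within or above the siControl range.

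Levels of paralogs per length, in the deposited FPKM, show how much of each family moved. RIMS3 made up 53.2% ± 0.729 and RIMS4 41.9% ± 0.325 of the RIM family's FPKM in siControl libraries (SD, n = 3), while RIMS1 and RIMS2 made up 1.62% ± 0.227 and 3.26% ± 0.594. With siPSF the shares of RIMS1 and RIMS2 were 0.954% ± 0.0818 and 2.15% ± 0.149. The long RIMs that fell most were thus minor transcripts of the family, and the family's summed FPKM went from 94.8 ± 1.65 to 74.1 ± 6.81, mostly through RIMS3.

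The giant scaffolds fell too. PCLO, which encodes piccolo, had 71.4, 85.1 and 101 CPM with siControl and 55.1, 59.5 and 44.9 CPM with siPSF (-0.69, SE 0.13, adjusted p = 0.0048). BSN, which encodes bassoon, had 96.1, 109 and 107 CPM against 69.2, 81.6 and 79.9 CPM (-0.44, SE 0.09, adjusted p = 0.0079). In both genes the groups did not overlap, although the siControl libraries of PCLO were widely spread. ERC1, the ELKS scaffold that binds RIMs, had 88.6, 99.9 and 109 CPM against 75.4, 78.8 and 72 CPM (-0.40, SE 0.09, adjusted p = 0.014), and its call was lost without the second siControl library (adjusted p = 0.054). Its neural paralog ERC2 made up only 6.76% ± 1.15 of the pair's FPKM and was not called (-0.30, 95% interval -0.56 to -0.04, adjusted p = 0.16).

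The priming factors were not called in the count fit. UNC13A (Munc13-1) had a log2 fold change of -0.23 (adjusted p = 0.092), UNC13B of -0.18 (0.32), UNC13D (Munc13-4, which primes granules in blood cells) of -0.15 (0.25), and CADPS, the priming factor of dense-core vesicles, of -0.23 (0.2). UNC13D was the most abundant of these per length, at 59.4% ± 1.77 of the UNC13 family's FPKM in siControl libraries, with 165, 177 and 154 CPM against 145, 150 and 153 CPM. Its siPSF libraries lay just below the siControl range, and it was called lower by limma on rescaled FPKM (-0.33, adjusted p = 0.0071).

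The SNAREs that drive secretion were not called in either direction in the count fit. Of 17 measured, 16 were tested, 6 were fitted below 0 and the median log2 fold change was 0.03. The shares over all 19694 genes were 8.27% called lower and 6.65% higher. All of these SNAREs span under 100 kb, the longest being SNAP25 at 88.6 kb. At that span 4.65% of all protein-coding genes were called lower and 7.69% higher. The part of span in the difference from the active zone genes was not tested. Their summed level was 478, 492 and 503 CPM with siControl and 494, 486 and 523 CPM with siPSF, and the groups overlapped. At an unadjusted p under 0.05 VAMP8 was the 1 gene called, and DESeq2's Wald test with adjustment called 0. With adjustment, the fit without siControl replicate 1 called 1 of 16 higher, VAMP8, and limma on rescaled FPKM called 2 of 15 lower, VAMP2 and SNAP29.

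SNAP25, the neuronal plasma membrane SNARE and the target of several botulinum toxins, had 53.8, 51.9 and 60.7 CPM with siControl and 63.9, 55.9 and 49.3 CPM with siPSF. Its log2 fold change was 0.02 with a 95% interval of -0.19 to 0.23, so a change as large as that of SYT1 or SV2C lies outside the interval. STX1A, its syntaxin partner, had 55.5, 51.9 and 44.9 CPM against 54.4, 58.5 and 60.9 CPM (0.19, interval -0.00 to 0.38, adjusted p = 0.22). VAMP2, the vesicle SNARE of neurons, had 55, 56.6 and 53.3 CPM against 50.9, 51.4 and 42 CPM. Its siPSF libraries were all lower, yet it was not called (-0.19, adjusted p = 0.21). The highest fitted value was that of VAMP8, an endosomal and exocrine SNARE with under 1 CPM in every library (0.78, interval 0.22 to 1.35, adjusted p = 0.088).

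The syntaxins of internal membranes had 1 gene called in each direction among 9 (11.1% each), beside 8.27% lower and 6.65% higher over all genes. STX8, a late endosome syntaxin, had 15.6, 15.8 and 13 CPM with siControl and 8.02, 9.17 and 7.52 CPM with siPSF (-0.85, SE 0.12, adjusted p = 9.7e-04). STX6, a syntaxin of the trans-Golgi network, had 59.5, 61.4 and 70.3 CPM against 80.6, 73.2 and 83.6 CPM (0.31, SE 0.09, adjusted p = 0.041). The groups did not overlap for either gene, but STX6 lost its call without siControl replicate 1 or 2 or siPSF replicate 1 or 3 (adjusted p of 0.074 to 0.17). STX10, which per length was the highest of this role, had 91.7, 99.2 and 80.2 CPM against 93.1, 95.6 and 75.5 CPM and was not called. STX16, a Golgi syntaxin, had 136, 128 and 139 CPM against 148, 145 and 143 CPM (0.12, adjusted p = 0.35).

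Among the 9 regulators of SNARE assembly, 3 were called lower (33.3%) and none higher, beside 8.27% lower and 6.65% higher over all genes. CPLX2, which encodes the clamp protein complexin 2, had 198, 203 and 179 CPM with siControl and 133, 143 and 149 CPM with siPSF (-0.45, SE 0.08, adjusted p = 0.0044). CPLX1 had 33.6, 32.9 and 27.6 CPM against 21.7, 22.4 and 22.6 CPM (-0.50, SE 0.10, adjusted p = 0.0064). Both fell alike, so that CPLX2 made up 72.1% ± 0.957 of complexin FPKM with siControl and 71.8% ± 1.87 with siPSF. NSF, the ATPase that takes spent SNARE complexes apart, had 67.1, 56.4 and 60.3 CPM against 72.1, 71.8 and 57.2 CPM (0.13, adjusted p = 0.46). STXBP3, a syntaxin-binding protein found in many tissues, was not called either (0.16, adjusted p = 0.37). Summed over the role, 522, 531 and 500 CPM with siControl stood against 416, 441 and 420 CPM with siPSF, which left 82.2%.

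Calcium sensors and related C2-domain proteins went both ways: of 17 tested, 4 were called lower (23.5%), 2 higher (11.8%) and 11 in neither direction. Over all genes the shares were 8.27% lower and 6.65% higher. SYT1, the fast sensor of synchronous release, had 43.9, 45.4 and 50.1 CPM with siControl and 33.5, 31.5 and 31.1 CPM with siPSF (-0.54, SE 0.09, adjusted p = 0.0023). SYT9, another fast sensor, also used by dense-core vesicles, fell most, from 3.01, 3.35 and 3.08 CPM to 1.75, 1.37 and 1.11 CPM (-1.15, SE 0.19, adjusted p = 0.0019). Neither gene's groups came near to overlapping. SYT4, a synaptotagmin that lacks normal calcium binding and sits on peptide vesicles, had 63.9, 54.5 and 68.9 CPM against 45.9, 34.2 and 41 CPM (-0.63, SE 0.12, adjusted p = 0.0049). SYT16, an atypical form, had 11.1, 11.8 and 13.8 CPM against 8.31, 7.9 and 7.15 CPM (-0.65, SE 0.12, adjusted p = 0.0045). All 4 kept their calls in each of the 6 fits without 1 library.

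The 2 sensors called higher were less stable. SYT3, a high-affinity sensor, had 9.73, 8.5 and 6.9 CPM with siControl and 9.87, 12.4 and 14.6 CPM with siPSF (0.55, SE 0.16, adjusted p = 0.039), with the lowest siPSF library only just above the highest siControl library. DOC2A, a sensor of spontaneous and asynchronous release, had 9.59, 9.11 and 8.54 CPM against 11.7, 11.5 and 14.7 CPM (0.48, SE 0.12, adjusted p = 0.023). SYT3 lost its call without siControl replicate 2 or 3 or siPSF replicate 2 or 3 (adjusted p of 0.067 to 0.15), and DOC2A without siControl replicate 2 (0.09) or 3 (0.086). DOC2A overlaps INO80E, a chromatin remodelling gene with 117 CPM in siControl libraries, and whether the counting used strand is not stated in the sources used here.

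The most abundant synaptotagmins per length were not called in the count fit. SYT11, which does not bind calcium, made up 34.4% ± 0.835 of the family's FPKM in siControl libraries and had 227, 223 and 235 CPM against 225, 223 and 203 CPM (-0.08, adjusted p = 0.57), and it was called lower by limma on rescaled FPKM (-0.27, adjusted p = 0.044). SYT5 made up 29.4% ± 2.27 and had 70.4, 90.9 and 80.5 CPM against 68.5, 68.8 and 91.7 CPM (-0.08, adjusted p = 0.72). SYT1 made up 7.71% ± 0.285 with siControl and 6.02% ± 0.388 with siPSF, and the family's summed FPKM was 119 ± 6.58 against 99.8 ± 4.72. RPH3A (rabphilin), a RAB3 effector on the vesicle, had 74.5, 79.8 and 79.2 CPM against 67.4, 79.2 and 75.5 CPM (-0.07, 95% interval -0.24 to 0.10). It spans 324 kb and was not called, unlike its partner RAB3C.

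**Figure D2:**
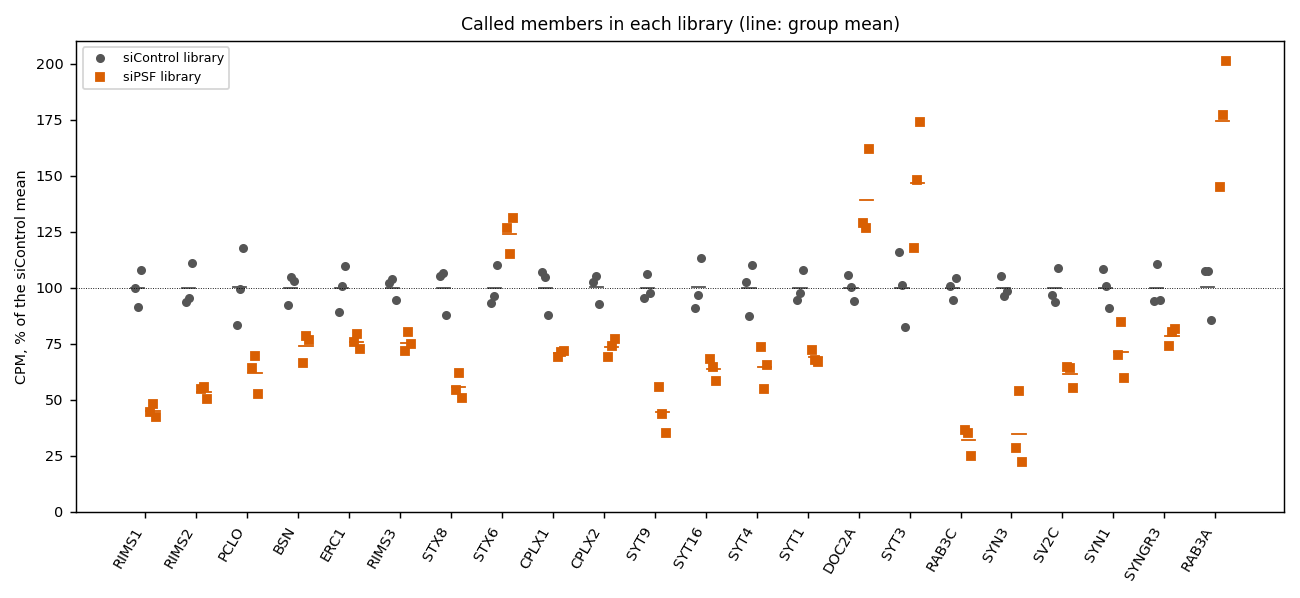
CPM in each library as a percent of the gene's siControl mean (y axis, from 0) for the called members reported (x axis, by role). Grey circles are siControl and orange squares siPSF libraries, short lines are group means; the siPSF libraries of RAB3C lie lowest with SYN3, at a mean of 32.1% and 34.8%, and those of RAB3A highest, at 174%.

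Vesicle proteins held both the deepest fall and the largest called rise. Of 16 tested, 5 were called lower (31.2%), 1 higher (6.25%) and 10 in neither direction, beside 8.27% lower and 6.65% higher over all genes. The RAB3 GTPases, which tether vesicles to RIM proteins, moved apart. RAB3C had 32.2, 30.1 and 33.3 CPM with siControl and 11.6, 11.2 and 7.95 CPM with siPSF (-1.64, SE 0.14, adjusted p = 4.2e-05). RAB3A, the main neuronal form, had 15.5, 15.5 and 12.3 CPM against 20.9, 25.5 and 29 CPM (0.80, SE 0.14, adjusted p = 0.0023). The ratio of RAB3C to RAB3A counts was 2.08, 1.94 and 2.70 in siControl libraries and 0.553, 0.438 and 0.274 in siPSF libraries, so RAB3C had the more counts in all 3 siControl libraries and the fewer in all 3 siPSF libraries. Per length, RAB3A was the larger form in both groups. It made up 46.1% ± 4.22 of RAB3 FPKM with siControl and 64.7% ± 4.18 with siPSF, and RAB3C 17.2% ± 1.48 and 4.52% ± 1.24. RAB3D, at 25.6, 25.9 and 26.2 CPM against 28.1, 29.3 and 27 CPM (0.12, adjusted p = 0.4), and RAB3B (-0.28, adjusted p = 0.19) were not called.

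The promoters of these opposite paralogs are shown with that of SYN1, a synapsin gene known as a target of the repressor REST. Each sequence is the 250 bases before the RefSeq start site (GRCh38.p14), 5′ to 3′ on the gene's strand: RAB3A at chr19:18204043-18204292 (minus), RAB3C at chr5:58582825-58583074 (plus) and SYN1 at chrX:47619858-47620107 (minus). Capitals mark the GC box GGGCGG, on either strand, in RAB3A and RAB3C, and the core of the REST element RE1 in SYN1.
RAB3A: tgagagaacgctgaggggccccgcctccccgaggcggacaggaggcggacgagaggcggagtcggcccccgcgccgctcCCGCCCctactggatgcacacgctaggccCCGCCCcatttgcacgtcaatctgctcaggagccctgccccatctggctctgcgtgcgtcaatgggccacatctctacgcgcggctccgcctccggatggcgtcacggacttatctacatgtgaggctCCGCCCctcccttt
RAB3C: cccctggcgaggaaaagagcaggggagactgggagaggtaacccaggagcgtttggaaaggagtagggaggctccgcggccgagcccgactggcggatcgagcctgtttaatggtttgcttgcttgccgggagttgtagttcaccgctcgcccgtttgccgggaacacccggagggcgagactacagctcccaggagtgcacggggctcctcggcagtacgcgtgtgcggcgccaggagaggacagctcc
SYN1: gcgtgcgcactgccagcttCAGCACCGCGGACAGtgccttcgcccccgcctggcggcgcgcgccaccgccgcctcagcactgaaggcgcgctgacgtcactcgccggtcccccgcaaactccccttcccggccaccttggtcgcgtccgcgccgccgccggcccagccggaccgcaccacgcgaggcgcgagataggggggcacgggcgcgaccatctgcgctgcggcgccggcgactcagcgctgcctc
RAB3A held 3 copies of the GC box and RAB3C none. The RAB3C window lies inside the gene's annotated span of 277 kb (chromosome 5, 58582152 to 58859394), which begins before the start site used, whereas RAB3A spans 7.26 kb (chromosome 19, 18196784 to 18204042). In all, 61 of the 79 tested members and 11732 protein-coding genes tested had a promoter in the RefSeq table. A GC box was found in 73.8% of the member promoters and 66.3% of all, the E-box CACGTG in 11.5% and 8.89%, the TATA motif TATAAA in 1.64% and 5.59%, and the cAMP element TGACGTCA in 4.92% and 2.85%. The RE1 core (CAGCACC, any 2 bases, then GGACAG, either strand) was found in 2 member promoters, those of SYN1 (called lower) and RPH3A (not called), and in 8 of all 11732. Its left part CAGCACC alone was in 16.4% of member promoters and 5.9% of all, in PCLO, RIMS1, SV2C, SYN1 and SYT4 (called lower), SYT3 (called higher), RPH3A, SNAP23, SV2B and SYT15 (not called). These matches are letters in a window and not bound sites.

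The synapsins, which tie vesicles into the reserve pool, differed among themselves. SYN1 had 30, 27.9 and 25.2 CPM with siControl and 19.4, 23.5 and 16.5 CPM with siPSF (-0.48, SE 0.13, adjusted p = 0.026), and lost its call without siControl replicate 1 or 2 or siPSF replicate 1 (adjusted p of 0.073 to 0.083). SYN3 had 0.723, 0.66 and 0.675 CPM against 0.194, 0.369 and 0.152 CPM (-1.52, SE 0.33, adjusted p = 0.0092) and was per length the lowest of the called members, at 0.0782 FPKM with siControl. SYN2 was not called (0.11, 95% interval -0.08 to 0.30, adjusted p = 0.5), and its share of synapsin FPKM was 33.9% ± 1.85 with siControl and 43.8% ± 5.46 with siPSF. SYN1 and SYN3 each contain a metalloproteinase inhibitor gene in an intron. TIMP1 in SYN1 was called higher (0.49, SE 0.12, adjusted p = 0.015), opposite to its host, and TIMP3 in SYN3, with 5.75 CPM in siControl libraries, was not called (-0.40, adjusted p = 0.084).

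Of the SV2 glycoproteins, which aid vesicle priming, only SV2C was called. It had 98.6, 95.6 and 111 CPM with siControl and 66, 65.5 and 56.2 CPM with siPSF (-0.70, SE 0.09, adjusted p = 5.9e-04) and spans 506 kb of chromosome 5 (75847464 to 76353939). SV2A, the broadly expressed form, had 138, 168 and 155 CPM against 152, 171 and 148 CPM (0.03, 95% interval -0.16 to 0.21). SV2A made up 78.7% ± 2.13 of SV2 FPKM with siControl and 85.8% ± 0.926 with siPSF, and SV2C 20.8% ± 2.08 and 13.6% ± 0.95. SYNGR3, a synaptogyrin that binds the dopamine transporter, had 15.8, 18.6 and 15.9 CPM against 12.4, 13.5 and 13.7 CPM (-0.35, SE 0.11, adjusted p = 0.05 after rounding, just under the threshold) and kept its call only in the fit without siPSF replicate 3, with adjusted p of 0.064 to 0.2 without any of the others. SYNGR2, the widely expressed form, made up 71.1% ± 0.51 of the family's FPKM and had 48.5, 52.6 and 46 CPM against 53.2, 57.2 and 59 CPM (0.20, adjusted p = 0.15). SYP, which encodes the vesicle marker synaptophysin, had 68.2, 70.2 and 63.7 CPM against 65.1, 68.5 and 65.4 CPM (-0.02, 95% interval -0.18 to 0.14).

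**Figure D3:**
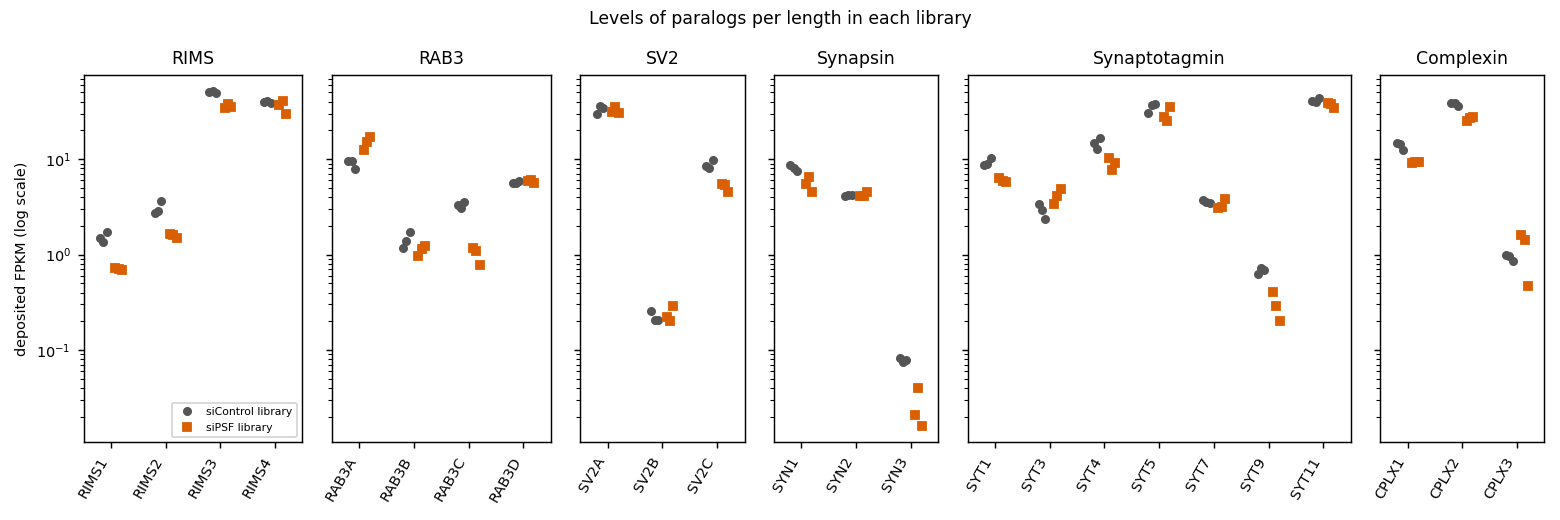
Deposited FPKM (y axis, log scale) of the paralogs of 6 families in each siControl (grey circles) and siPSF (orange squares) library. RIMS1 and RIMS2 lie far below RIMS3 and RIMS4 in both groups, and RAB3A and RAB3C move in opposite directions.

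Gene span went with the direction of change among the members as it did among all genes. Span is the distance from the start to the end of the RefSeq gene, introns included. Of 26 members of 100 kb or more, 12 were called lower (46.2%) and 0 higher, with a median log2 fold change of -0.35. Among all 2770 protein-coding genes of that span, 25.1% were called lower and 2.67% higher, with a median of -0.17. Of 53 members under 100 kb, 7 were called lower (13.2%) and 4 higher (7.55%), with a median of -0.02, against 4.65% lower and 7.69% higher among 11646 protein-coding genes of that span. At a limit of 200 kb, 11 of 18 long members were lower (61.1%, median -0.59), against 37.4% of 1133 protein-coding genes of that span (median -0.29). Spearman's rho between span and log2 fold change was -0.52 over the 79 members and -0.30 over 14416 protein-coding genes, both across genes of the same 6 libraries. Span and FPKM were themselves related among the members (rho -0.23).

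Long members lay on both sides of the threshold. The lower members over 100 kb were RAB3C, SYN3, RIMS1, SYT9, RIMS2, STX8, SV2C, PCLO, SYT16, SYT1, BSN and ERC1. ERC2 (960 kb), CADPS (477 kb), RPH3A (324 kb), UNC13B (243 kb) and SYN2 (188 kb) were not called. The lower members under 100 kb included SYT4 (9.6 kb), SYNGR3 (4.31 kb), CPLX1 (41.2 kb), SYN1 (48 kb), RIMS3 (71.4 kb) and CPLX2 (87.5 kb). The 4 higher members, RAB3A, DOC2A, SYT3 and STX6, spanned 7.26 to 50.1 kb.

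**Figure D4:**
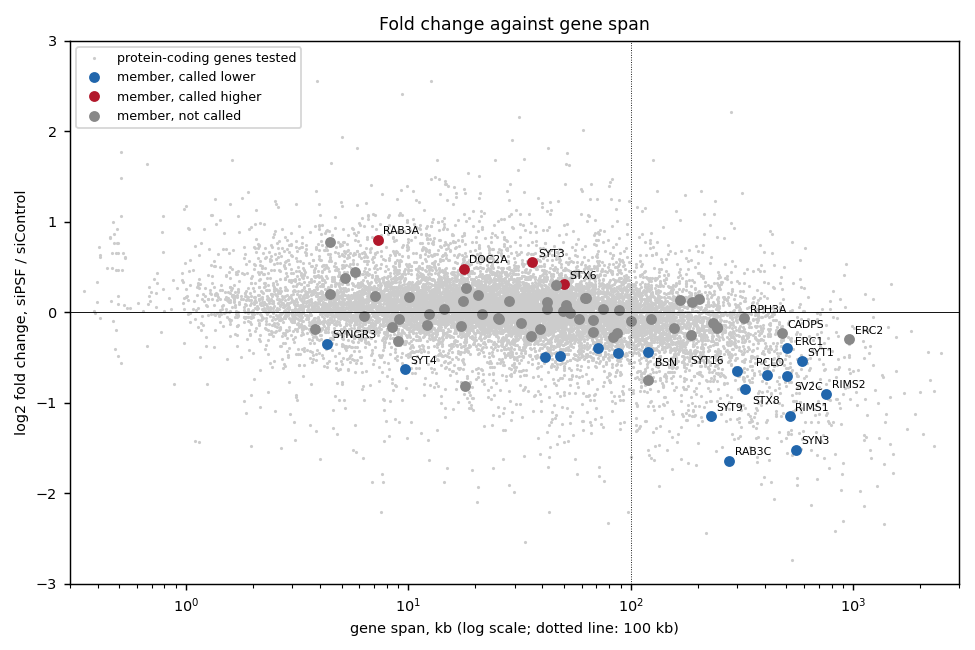
Log2 fold change of siPSF over siControl (y axis) against gene span in kb (x axis, log scale) for the protein-coding genes tested (small grey points, 5 lie outside the axes) and the members (large points, blue called lower, red called higher, grey not called). No member right of the dotted 100 kb line was called higher, and 12 of 26 there were called lower.

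Other genes of the release cycle, on lists chosen with earlier results of these data known, had calls in both directions. Of 27 release partners tested, 3 were lower (11.1%) and 1 higher (3.7%), against 8.27% and 6.65% of all genes. SYTL2, a granule-docking effector of RAB27, had 4.21, 4.44 and 5.16 CPM with siControl and 2.01, 1.95 and 1.14 CPM with siPSF (-1.43, SE 0.21, adjusted p = 9.3e-04). APBA1 (Mint1), an adaptor protein of the active zone, and STXBP5L (tomosyn-2), which competes with VAMP for syntaxin, were also lower (-0.69, adjusted p = 0.0044, and -0.49, adjusted p = 0.013). TSPOAP1 (RIM-BP1), which joins RIM to calcium channels, was higher, with 19.5, 16.9 and 15.7 CPM against 25.6, 28.7 and 36.1 CPM (0.79, SE 0.13, adjusted p = 0.0022). The groups did not overlap for any of these 4 genes.

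Of 14 genes for vesicle filling and other vesicle proteins, none was lower and 2 were higher (14.3%), the proton pump subunit ATP6V1A (0.37, adjusted p = 0.034) and the vesicle protein TPRG1L (0.44, adjusted p = 0.03). Of 22 genes of vesicle endocytosis, 3 were lower (13.6%) and 2 higher (9.09%). The shares over all genes, to be set beside each list of this paragraph, were 8.27% lower and 6.65% higher. DNM3, a dynamin of nerve and testis, had 1.18, 1.59 and 1.6 CPM with siControl and 0.631, 0.635 and 0.923 CPM with siPSF (SE of the log2 fold change 0.23, adjusted p = 0.014). The ubiquitous dynamin DNM2 (-0.29, adjusted p = 0.034) and the auxilin DNAJC6 (-0.42, adjusted p = 0.038) were also lower, and the clathrin light chain CLTA was higher (0.32, adjusted p = 0.029). HSPA8, the chaperone that strips clathrin from vesicles, had 272, 278 and 248 CPM with siControl and 557, 614 and 679 CPM with siPSF (1.21, SE 0.10, adjusted p = 3.3e-05). Of the 9 exocyst subunits, which tether secretory vesicles to the plasma membrane, EXOC2 and EXOC6B were lower (22.2% of the list; -0.38, adjusted p = 0.022, and -0.42, adjusted p = 0.02) and the other 7 were not called. TSPOAP1, APBA1, SYTL2 and HSPA8 kept their calls in all 6 fits without 1 library, and the other called genes of these lists lost theirs in at least 1 such fit, with a highest adjusted p of 0.058 (STXBP5L) to 0.17 (ATP6V1A). The median log2 fold changes of these 4 lists were -0.09, -0.02, -0.12 and 0.01, beside 0.01 over all genes.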

How the data were processed

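Gene expression was compared by RNA-seq in SH-SY5Y cells treated with siControl or siPSF (3 libraries each). The authors deposited 1 table with read counts per gene (whole numbers, not normalized) and FPKM per library. The authors made both from 50 bp paired-end reads mapped to GRCh38; the submitters' processing notes name Trimmomatic, HISAT2 2.1.0 and StringTie 2.1.3b, whereas the paper's methods name other tools. The table held no count of 0 (its smallest was 1), so a gene unread in any library is absent from it.

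Counts were tested with edgeR 4.0.16 (R 4.3.3): filterByExpr, TMM scaling, a quasi-likelihood fit of the 6 libraries without further covariates, and Benjamini-Hochberg adjustment over all 19694 genes tested (called at adjusted p under 0.05). The SE is the log2 fold change divided by the square root of its F statistic. The 95% intervals are approximate: they use the normal multiple of this SE and are narrower than the quasi-likelihood test implies. For CADPS, for example, the interval of -0.44 to -0.01 leaves out 0 although the edgeR test gave an unadjusted p of 0.065. FPKM served to set paralogs side by side. Total counts of 101540520 to 132420931 and a common biological coefficient of variation of 12.6% set the precision. Replicates differed by more than sampling noise (chi-square per degree of freedom of 22.6 to 66.3). Gene spans came from RefSeq (97.7% of gene IDs matched), promoters from RefSeq (GRCh38.p14). Alternatives used DESeq2 1.42.0 and limma 3.58.1 (log2 of FPKM plus 0.5, mean FPKM of at least 0.5). Some items counted in the totals are not reported here by name. Genes named were otherwise all called members, the 2 uncalled members of highest FPKM in each role, and called genes of the other lists. ERC2, UNC13A, UNC13B, CADPS, VAMP2, VAMP8, SNAP29, RAB3B, RAB3D, RPH3A, SYN2 and SYP were added after their values were seen. The members, roles and lists were chosen with earlier results of these data known.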

Additional observations from a re-analysis of the deposited data

How the results depend on the processing

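The 19 lower and 4 higher members were also 19 and 4 with DESeq2 size factors and with the DESeq2 Wald test, and all 23 were called the same way in both. Without the filter on low counts, 18 were lower and 2 higher. With limma on deposited FPKM (72 members tested) 19 were lower and 2 higher, and 736 of all genes were higher instead of 1310. With limma on FPKM rescaled between libraries (71 members tested) 29 members were lower and 1 higher, and of all genes 3409 were lower and 463 higher instead of 1628 and 1310. Of the 23 called members, 20 kept their call without the filter, 19 on FPKM and 18 on rescaled FPKM, where SYT9 and SYN3 were under the FPKM minimum and untested. Leaving out 1 library at a time gave 15 to 20 lower and 1 to 4 higher members, and 928 to 1735 lower and 572 to 1405 higher genes in all; the lowest counts came without siControl replicate 2, which left 16 of the 23 calls. In all 6 such fits 16 of the 23 members were called, and the others, among them ERC1, STX6, DOC2A, SYT3, SYN1 and SYNGR3, lost their call in at least 1. None of the 23 called members changed sign in any of these alternatives. Libraries of the same number did not visibly deviate together (correlations of -0.0222, 0.0561 and 0.0559, against -0.121 to 0.0712 for unlike numbers). With so few libraries this cannot decide whether the numbers pair samples. A fit with the replicate block called 19 members lower and 3 higher, with SYT3 lost (adjusted p = 0.083), and 1640 and 1389 genes in all. Summed FPKM in place of summed CPM left 91.9% of the internal syntaxins, 78.7% of the SNARE regulators, 85.6% of the sensors and 94.6% of the vesicle proteins, against 103%, 82.2%, 90% and 89.7%. Members under 1 CPM, such as SYN3, SYT2, SYT8, SYT15, SYNGR4 and VAMP8, had SEs of 0.27 to 0.41, so only changes well above these SEs could be called. SYT15, for example, was not called at a log2 fold change of -0.82 (SE 0.27).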

Other observations

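Genes that overlap a member, counted with no statement on strand, were called in some cases where the member was not. The read-through transcript STX16-NPEPL1 was lower (log2 fold change -1.50, SE 0.21, adjusted p = 8.3e-04, edgeR quasi-likelihood test), from 10.3 to 3.64 CPM, while STX16 was not called (0.12). The antisense gene STX18-AS1 was lower (-0.87, SE 0.15, adjusted p = 0.0028) and STX18 was not called (-0.08). LOC107985002, a long non-coding RNA within STXBP4, was higher (2.21, SE 0.27, adjusted p = 3.6e-04), from 0.34 to 1.58 CPM, while STXBP4 was not called (-0.16). PPP1R12B, a myosin phosphatase subunit that overlaps SYT2, was lower (-0.47, SE 0.10, adjusted p = 0.0084) at 42.2 CPM in siControl libraries, against 0.436 CPM for SYT2, which was not called (-0.75). RAB3A, called higher, overlaps MPV17L2, which was not called (-0.15, adjusted p = 0.39). SYT15 has a near-identical copy in the genome, so its value (-0.82, adjusted p = 0.06) is uncertain. These genes were picked after their values were seen, and the part of shared reads in the values was not tested. The ratio of deposited FPKM to CPM was not the same in all libraries: its highest value was 1.71 times its lowest for STXBP4, 1.24 times for SYT9, 1.15 times for RIMS1 and 1.11 times for RIMS2.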
